A study of Homo sapiens with 6 samples.

Results

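MiR-21 was followed through its single probe, the spot named hsa-miR-21, which was 1 of 1719 human miRNA probes on each of 6 single-colour arrays. The probe was chosen by its name, and each array carried 1 spot of it. The arrays held RNA from HK-2, a permanent cell line grown from the epithelium of human kidney proximal tubules and kept dividing by papillomavirus genes. The control group was 3 samples kept for 48 h in medium with 0.2% fetal calf serum. The treated group was 3 samples kept for the same time in the same medium with aristolochic acid at 5 µg/ml, a nephrotoxic plant compound whose metabolites bind to DNA. All samples were of 1 cell line, without the other cells of a kidney. The labels do not say whether replicates were separate cultures, so a p-value here covers the spread among these arrays alone, which could be technical.

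MicroRNAs are short RNAs that guide a silencing complex to messenger RNAs, which they bind mainly through the seed, bases 2 to 8 of the miRNA. MiR-21 is made from the MIR21 gene, which overlaps the end of the protein-coding gene VMP1, and its transcription is known to respond to AP-1, STAT3 and TGF-beta signalling. Known targets include PDCD4 and the Sprouty proteins, which restrain growth and survival signals. In kidney, miR-21 is known to be raised in injured tubules and in fibrosis, and it is abundant in most cultured epithelial cells.

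The sequences show which RNA the probe is named for and which miRNA shares its seed. The sequence of the probe itself was not examined. In RefSeq, assembly GRCh38.p14, the hairpin lies at chr17:59841266-59841337 on the plus strand and is 72 bases long. The capitals mark the mature arm in the hairpin, which spans its bases 8 to 29, and the seed in the mature sequences. The array name hsa-miR-21 stands for the arm now called miR-21-5p. The other arm is probed as hsa-miR-21*.
MIR21 hairpin: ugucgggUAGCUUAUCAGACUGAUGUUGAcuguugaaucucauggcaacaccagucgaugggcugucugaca
hsa-miR-21-5p: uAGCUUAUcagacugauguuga
hsa-miR-590-5p: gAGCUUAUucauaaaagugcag
Of the 2545 mature entries in the RefSeq table, 1 other, miR-590-5p (chr7:74191213-74191234, plus strand), had the seed of miR-21, and it had a probe on the array. Outside the seed that sequence diverged, with 10 single-base edits (substitutions, insertions or deletions) between the pair. The smallest number of edits from miR-21 to any of the 2351 distinct mature sequences was 7, reached by 4 of them.

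The values are spot brightness. Raw intensity of the miR-21 spot was 9962, 8229 and 1364 on control replicates 1, 2 and 3, and 12860, 13759 and 10033 on aristolochic acid replicates 1, 2 and 3. The spot was far above background on each array. The background that the authors subtracted was between 50.6 and 61.8, and even the lowest value, on control replicate 3, was 27.0 times the background of its array.

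MiR-21 was the second brightest human probe on 5 arrays and the fifth brightest on control replicate 3. On those 5 arrays the only brighter probe was miR-4454, whose annotated sequence is shown for comparison with the seed in capitals (chr4:163093607-163093626, minus strand).
hsa-miR-4454: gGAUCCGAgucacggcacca
The next probe below miR-21 on the same 5 arrays, miR-1260b or miR-4286, was 2.04 to 3.12 times dimmer than miR-21 after background subtraction. On control replicate 3 miR-1260b, miR-4286 and miR-720 also lay above miR-21, and the gap to miR-720 was 1.09-fold. Ranks and shares compare the brightness of spots, which also depends on how well each probe binds, and they do not count molecules.

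The share of miR-21 was its background-subtracted intensity as a percentage of the sum over all human probes detected on that array. It was 9.73%, 8.65% and 1.64% on control replicates 1, 2 and 3, and 11.3%, 11.4% and 9.19% on aristolochic acid replicates 1, 2 and 3. Control replicate 3 stood apart from the other 5 arrays, and the treated and control ranges overlapped. The means were 6.67% ± 4.39 in control and 10.6% ± 1.22 in treated samples (SD, n = 3 each, exact permutation p = 0.2, two-sided, where 0.1 is the smallest value that 3 against 3 allows). Without control replicate 3 the control mean was 9.19% ± 0.763 (n = 2), and the difference from the treated mean was 1.42 percentage points (exact permutation p = 0.3).

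**Figure D1:**
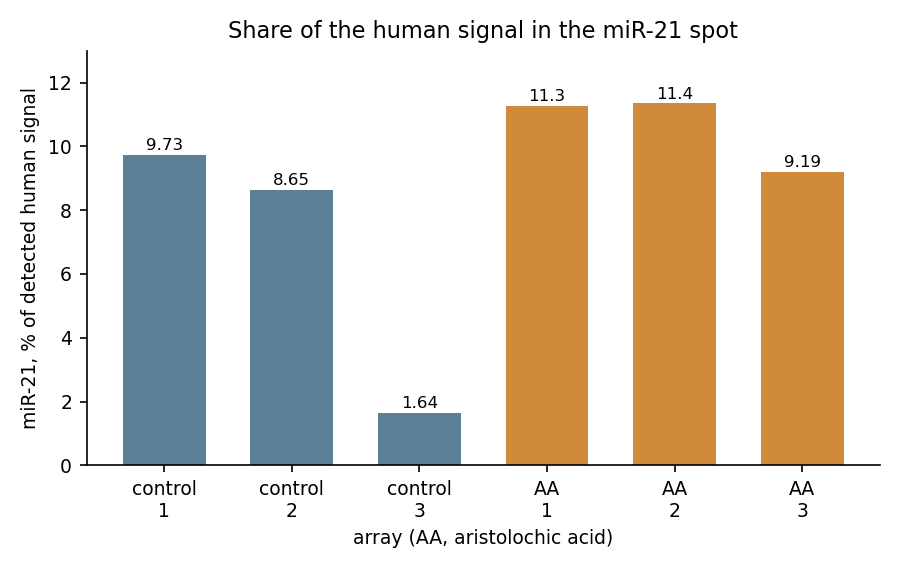
Background-subtracted intensity of the miR-21 spot as a percentage of the summed intensity of the detected human probes, 1 bar per array. Control replicate 3, at 1.64%, is the only array below 8%, and the other 5 lie between 8.65% and 11.4%.

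The share has a denominator dominated by 1 probe. MiR-4454 alone took 44.6% to 51.2% of the human signal on control arrays and 37.3% to 39.4% on treated arrays. The background-subtracted spot itself overlapped between the groups. It was 46153, 42204 and 41015 on the control arrays and 42340, 47536 and 42099 on the treated arrays. Its log2 difference was 0.03 without scaling between arrays (limma adjusted p = 0.890) and -0.50 with arrays scaled to an equal median (limma adjusted p = 0.129). With miR-4454 left out of the sum, the share of miR-21 was 17.8%, 15.6% and 3.36% on the control arrays and 18.0%, 18.7% and 15.02% on the treated arrays. Measured this way, the treated mean exceeded the mean of control replicates 1 and 2 by 0.540 percentage points, against SDs of 1.53 and 1.96 within the groups (exact permutation p = 0.7).

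For a comparison between arrays, each array was scaled so that the median of the 503 human probes detected on all 6 arrays was 25. On this scaled intensity miR-21 was 15181, 13225 and 2297 on control replicates 1, 2 and 3. It was 14540, 14723 and 11876 on aristolochic acid replicates 1, 2 and 3. From high to low the order was control 1, treated 2, treated 1, control 2, treated 3 and control 3, so the groups interleaved except for the last array. Leaving that array aside, the highest value was 1.28 times the lowest, a log2 range of 0.35.

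**Figure D2:**
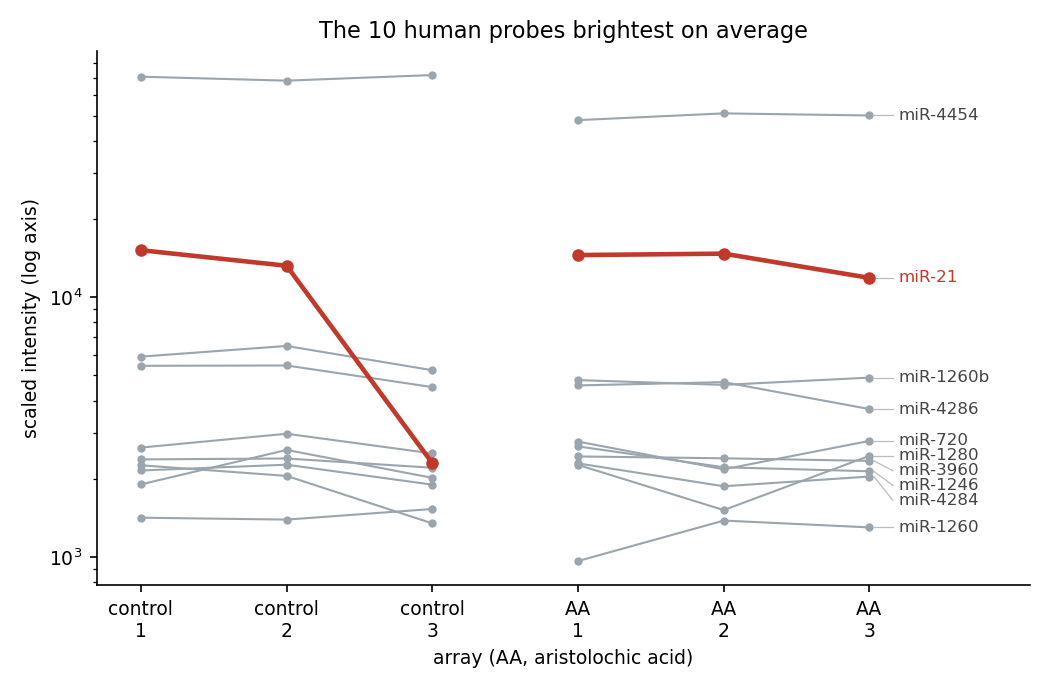
Scaled intensity (log axis) of the 10 human probes with the highest mean, on 3 control arrays and 3 arrays from cells treated with aristolochic acid (AA). Lines join the values of 1 probe within a group. MiR-21 (red) lies between 11876 and 15181 on 5 arrays and at 2297 on control replicate 3, where none of the other 9 probes deviates from the other control arrays by more than 0.68 on the log2 scale.

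MiR-21 did not differ between the groups by more than the spread between arrays. The mean scaled intensity was 10234 ± 6943 in control and 13713 ± 1593 in treated samples (SD, n = 3 each, exact permutation p = 0.7). The log2 difference of aristolochic acid minus control was 0.82 (SE 0.64, 95% interval -0.65 to 2.29, limma adjusted p = 0.613). The fit spanned 503 probes, of which 5 passed an adjusted p of 0.05, all higher in treated samples, or 0.994% of those tested. These were miR-450a, miR-4730, miR-542-3p, miR-194 and miR-3135b, so miR-21 was not among them. Without control replicate 3 the log2 difference of miR-21 was -0.05 (SE 0.18, 95% interval -0.47 to 0.37, limma adjusted p = 0.889). That interval runs from 0.72-fold to 1.29-fold. Control replicate 3 was singled out for its low miR-21 value. Each SE, interval or p-value of miR-21 given without it thus leaves out the spread that this array brought, and is descriptive only. Under this scaling the sign turned only without control replicate 3, at a value smaller than its SE. Leaving out any other array gave a log2 difference between 0.77 and 1.31. The fit without control replicate 3 called 1 of 503 probes (0.199%), miR-450a.

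The scaling between arrays moved the difference further. The treated arrays were brighter as a whole, with a subtracted background of 53.3 to 61.8 against 50.6 to 51.8 and a summed human signal of 108515 to 120739 against 80088 to 101889. A batch and the treatment cannot be told apart in this design. Without any scaling, background-subtracted miR-21 was 9911, 8177 and 1313 on the control arrays and 12799, 13706 and 9975 on the treated arrays. Here every treated value exceeded every control value, as it did for 53.7% of the 503 probes. The log2 difference was then 1.35 (SE 0.62, limma adjusted p = 0.111). In this fit 129 probes passed (25.6%), and the median difference over all tested probes was 0.45. Scaling to the 16 spike-in control spots gave 1.09 (SE 0.54, limma adjusted p = 0.303) with a median over all probes of 0.20. Scaling to the total human signal gave 1.03 (SE 0.62, limma adjusted p = 0.427). The authors' globally normalized intensities gave 0.69 (SE 0.37, limma adjusted p = 0.884) with a median of -0.21. In that fit the SE was 0.37 also for miR-21*, miR-4454 and miR-590-5p. It thus rests on a variance pooled over probes and does not measure the spread of miR-21. On those values the log2 intensity of miR-21 was 15.09, 14.82 and 11.75 on control replicates 1, 2 and 3. On the treated arrays it was 14.39, 15.01 and 14.31.

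Each of these scalings multiplies a whole array by 1 factor, so miR-21 kept the same distance from the median probe. That distance was 0.89 on the log2 scale with all 6 arrays, higher than for 98.0% of the probes. It was 0.03 without control replicate 3, where 54.7% of the probes had a lower difference. The background correction also bore on this distance. Without control replicate 3 it was 0.19 on raw intensity, higher than for 88.5% of the probes, and 0.27 after normexp, a model-based background correction with an offset of 50, higher than for 90.9%. Without control replicate 3 the unscaled log2 difference was 0.42 (SE 0.20, 95% interval -0.06 to 0.90, limma adjusted p = 0.170), against a median of 0.39. It was 0.23 on the spike-ins (limma adjusted p = 0.693) and -0.38 on the authors' globally normalized values (limma adjusted p = 0.396).

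Quantile normalization is a special case for a probe at the top of each array. It hands each rank the same value on every array, and miR-21 held rank 2 on 5 of them. Its normalized log2 values on those 5 arrays spanned 13.092 to 13.093, and the value on control replicate 3, at rank 5, was 10.965. The log2 difference was 0.71 with all arrays (SE 0.56, limma adjusted p = 0.626) and 0.00 without control replicate 3, and neither measures a change in brightness. Cyclic loess, which fits a curve between arrays, gave 1.01 with all arrays (SE 0.61, limma adjusted p = 0.511) and 0.19 without control replicate 3 (SE 0.17, limma adjusted p = 0.665).

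**Figure D3:**
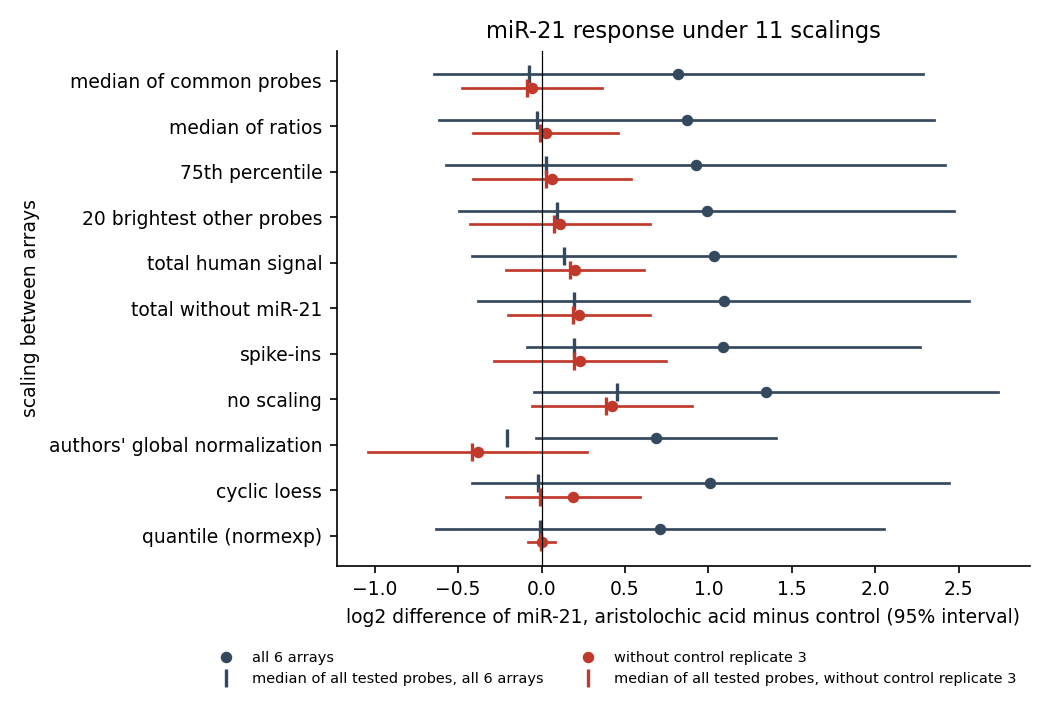
Log2 difference of miR-21, aristolochic acid minus control, under 11 scalings (rows), as points with 95% intervals from limma, with all 6 arrays (dark) and without control replicate 3 (red). Vertical ticks mark the median difference of all tested probes. For the authors' global normalization with all 6 arrays, the interval rests on a variance pooled over probes and does not measure the spread of miR-21. With all arrays the points lie between 0.69 and 1.35, to the right of the ticks. Without control replicate 3 they lie between -0.38 and 0.42, close to their ticks except under cyclic loess, where the point is at 0.19 and the tick at -0.01.

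On control replicate 3 the miR-21 value was low relative to the rest of its own array. In scaled intensity it lay 2.63 below the mean of the other 2 control arrays on the log2 scale, or 6.17-fold lower. The same quantity, each probe on each array against the other 2 arrays of its group, was computed for all 503 probes, giving 3018 values. None of the others was as far from 0 in either direction. The next largest was miR-378 on control replicate 1 at 1.93, and the lowest after miR-21 was miR-877* on control replicate 2 at -1.49. The SD over all probes of control replicate 3 was 0.41, the largest of the 6 arrays, against 0.32 to 0.39 on the other 5. That array had 644 detected human probes, against 879 and 936 on control replicates 1 and 2 and 647 to 873 on the treated arrays. Its summed human signal, 80088, was the lowest of the 6. MiR-21 itself deviated by 0.14, 0.16 and -0.30 on the treated arrays.

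**Figure D4:**
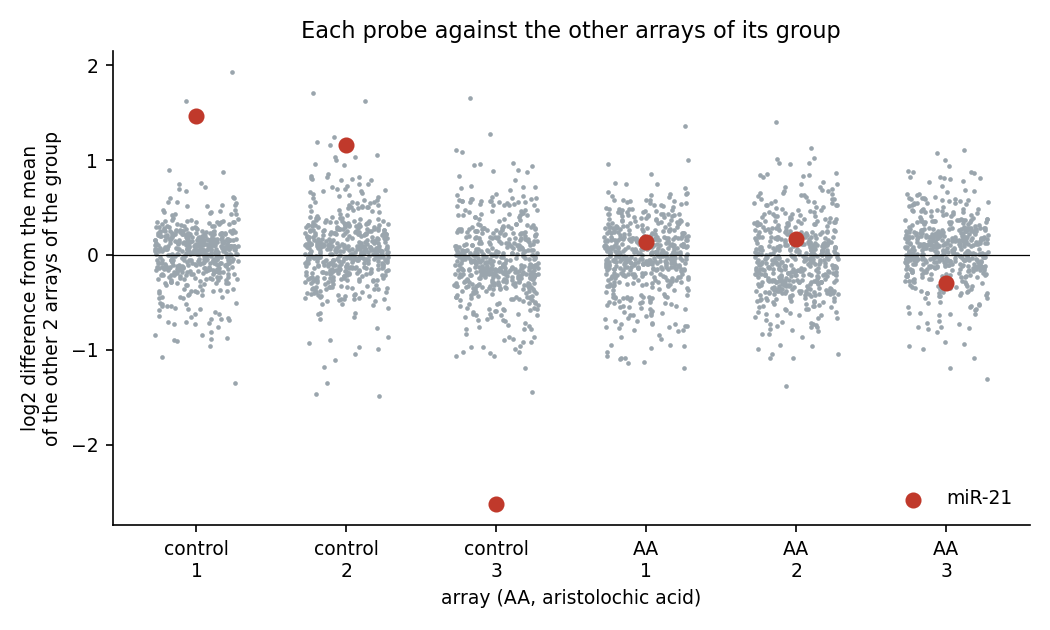
Log2 difference of each of 503 probes (grey points) from the mean of the other 2 arrays of its group, by array, with miR-21 in red. On control replicate 3 miR-21 lies at -2.63, below all other points, while on the treated arrays it lies between -0.30 and 0.16. Its values of 1.46 and 1.16 on control replicates 1 and 2 arise because control replicate 3 is part of their reference.

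The probes next lowest on control replicate 3 were dim ones. MiR-4686 deviated by -1.45 and miR-1181 by -1.20, with raw intensities there of 54.2 and 55.6, near the lowest value kept on that array, 54.0. Among bright probes no other fell that far. The 20 brightest other probes had a median deviation of -0.13, and the lowest of them was miR-1246 at -0.68. A list of 16 abundant miRNAs, made of let-7 members and others such as miR-16 and miR-23a, served as a check of small RNA recovery. The 15 of them that were measured had a median of 0.08, and the lowest was let-7b at -0.44. Control replicates 1, 2 and 3 were the lowest of the 6 arrays for 10.9%, 10.5% and 20.1% of the probes, and the treated replicates for 20.1%, 25.8% and 12.5%.

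The arrays carried no second spot of miR-21, so the spread between spots was read from the spike-ins, which had 8 spots of each of 2 kinds per array. Of 96 such spots, 2 lay more than 1 below the median of their kind on the log2 scale. The lowest was at -1.52, or 2.86-fold lower, on control replicate 2, and on control replicate 3 the lowest was at -0.61. The miR-21 spot on control replicate 3 carried no outlier mark in the deposited table. A difference in the spot and a difference in that sample cannot be told apart with 1 spot.

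The other arm of the hairpin, miR-21*, is usually degraded after the duplex is unwound. Its scaled intensity was 27.8, 22.8 and 23.9 on control replicates 1, 2 and 3, and 12.5, 24.8 and 18.9 on the treated arrays. On this scale control replicate 3 lay between the other 2 control arrays. Before scaling it was the lowest control, at 13.7 against 18.2 and 14.1 after background subtraction. The spot was dim, with raw intensities of 64.2 to 76.5. The log2 difference of aristolochic acid minus control was -0.46 (SE 0.25, 95% interval -1.03 to 0.12, limma adjusted p = 0.465), and it was 0.07 without scaling.

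The brightness ratio of miR-21 to miR-21* within an array needs no scaling. On the log2 scale it was 9.09, 9.18 and 6.59 on control replicates 1, 2 and 3, and 10.18, 9.21 and 9.30 on the treated arrays. Every treated value was above every control value, as was the ratio to miR-21* of 17.7% of the probes. The treated mean was higher by 1.28 (exact permutation p = 0.1), and by 0.43 without control replicate 3 (exact permutation p = 0.4). On raw intensity the groups overlapped, with 7.17 on control replicate 1 and 7.09 on treated replicate 3 (exact permutation p = 0.2). After normexp the same arrays had 7.114 and 7.111, and the groups again overlapped (exact permutation p = 0.2). The high value of treated replicate 1 went with the lowest miR-21* reading of the 6 arrays, 11.03 after background subtraction.

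MiR-590-5p, which shares the seed and is encoded within an intron of EIF4H, had scaled intensities of 25.02, 25.6 and 34.3 on the control arrays and 23.4, 19.5 and 26.8 on the treated arrays. The highest scaled value was on control replicate 3, where miR-21 was low. Before scaling it was not the highest, at 19.6 after background subtraction against 20.6 and 22.5 on treated replicates 1 and 3. The spot was dim, with raw intensities of 67.3 to 82.3. In scaled intensity the groups overlapped, and the log2 difference was -0.28 (SE 0.19, 95% interval -0.73 to 0.16, limma adjusted p = 0.550).

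The probes whose log2 scaled intensity followed miR-21 most closely over the 6 arrays were miR-4721, miR-4665-5p, miR-1181, miR-940 and miR-193a-3p. Their Pearson correlations with miR-21 were 0.99, 0.98, 0.96, 0.96 and 0.95, and the Spearman correlations 1.0, 0.60, 0.26, 0.94 and 0.94. All 5 were dim, with scaled intensities of 7.06 to 25.2, and all 5 were lowest on control replicate 3, where they deviated by -0.39 to -1.20. Without that array the Pearson correlations were 0.86, 0.03, -0.32, 0.63 and 0.61. These points share arrays and a scaling factor. Over all 502 other probes the median correlation was 0.06, and 24 exceeded 0.8.

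Other miRNAs tied to kidney injury and fibrosis were taken from a list of 17, of which 12 were detected on all arrays. None passed an adjusted p of 0.05 in limma in either direction, and 4 had an unadjusted p under 0.05, which 68 of all 503 probes (13.5%) also had. The median log2 difference was -0.18, beside -0.07 over all 503 probes. MiR-192, abundant in tubules, had 1.04 (limma adjusted p = 0.0661), and miR-200c, an epithelial miRNA, had 0.63 (limma adjusted p = 0.129). Its family members miR-200a and miR-200b had -0.16 and 0.17, and the tubule miRNAs miR-30a and miR-30c had -0.21 and 0.09. MiR-155, tied to inflammation, had -0.38. MiR-214, tied to fibrosis, had -0.65 and miR-34a, a p53 target, had -0.49. The miR-29 members, which repress collagens, had -0.12, -0.29 and -0.21 for miR-29a, miR-29b and miR-29c.

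A second list held 8 miRNAs that, like miR-21, are inducible by AP-1, STAT3 or NF-kappaB, and 7 were detected on all arrays. None passed in limma and none had an unadjusted p under 0.05. Over all probes 13.5% were under that value and 0.994% passed. The median log2 difference was -0.10, and the values ran from -0.38 for miR-155 to 0.26 for miR-146b-5p. MiR-146b-5p was low on control replicate 3, at 9.28 against 19.3 and 19.7 on the other control arrays, and without that array its log2 difference was -0.10. MiR-221 and miR-222 had 0.14 and 0.00.

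Of 11 markers of tubule and epithelium, 9 were detected on all arrays. Summed scaled intensities were 1608 to 1902 on control and 1615 to 1842 on treated arrays. Here and below, a sum takes the listed markers detected on the array in question, so its members can differ between arrays. Most of these sums came from miR-30a, with means of 925 in control and 799 in treated samples, and miR-30c, with 373 and 394. In limma 1 of the 9, miR-194, passed as higher, with a log2 difference of 1.19 (adjusted p = 0.0271), and 4 had an unadjusted p under 0.05. Over all 503 probes 0.994% passed and 13.5% had an unadjusted p under 0.05. Without control replicate 3 miR-194 had 1.28 and did not pass (limma adjusted p = 0.0728). MiR-215 (limma adjusted p = 0.159) and miR-192 did not pass and had 1.18 and 1.04. MiR-204 was detected on 2 arrays and miR-141 on 5. The 7 blood markers summed to 116 to 129 on control and 101 to 119 on treated arrays. MiR-142-3p, detected on all 6 arrays, made up most of this signal, averaging 90.0 (control) and 91.4 (treated). MiR-142-5p was also detected on all 6 arrays and averaged 18.6 (control) and 17.4 (treated). MiR-486-5p was detected on 5 arrays, miR-144 on 2 and miR-223 on 1, whereas miR-451 and miR-150 were detected on no array. Stromal markers summed to 27.4 to 52.4 and 24.5 to 39.7, muscle markers to 54.2 to 66.3 and 51.0 to 57.9, neuronal markers to 32.2 to 34.5 and 32.2 to 34.4, and the endothelial miR-126 to 10.2 to 13.8 and 8.69 to 14.4. Of the neuronal markers, miR-9 and miR-128 were detected on all 6 arrays and miR-124 on no array. The liver marker miR-122 was detected on 3 arrays, at no more than 10.1. In RNA from whole cultures, fewer cells of a type and less RNA per cell cannot be told apart.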

How the data were processed

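Each sample's total RNA (500 ng) was labelled with Cy5, per the labels' protocols, and measured on a single-colour array. The deposited tables hold raw spot intensity, background-subtracted intensity and globally normalized intensity, per the file headers. The platform, scanner and software are not given in the sources used here. Each table held 3136 spots. The authors' subtracted background was 1 constant per array. Probes with a deposited background-subtracted intensity counted as detected, and spots marked as outliers were dropped.

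Background-subtracted intensities were scaled per array to a median of 25 over the 503 human probes detected on all arrays, and their log2 values were compared between groups in limma 3.58.1 (R 4.3.3), without covariates. Benjamini-Hochberg adjustment covered all 503 probes, and the threshold was 0.05. This scaling was preferred to quantile normalization because miR-21 was known to lie near the top rank. Single values were compared by exact permutation tests, two-sided. The probe, the lists and the named miRNAs were chosen with earlier results of these data known. Named miRNAs were the probes of MIR21 and miR-590-5p, the 10 brightest, the 5 most like miR-21, the 3 lowest on control replicate 3 and list members. MiR-103 was listed but not found under that name. The fit was tested on simulated data, where the array median moved when many probes changed, so differences are also given relative to the median probe. In that simulation the spread of the most variable probes was capped. It thus did not cover a spread as wide as that of miR-21 and does not test the fit for that probe. The number of arrays limits the precision. Sequences are from RefSeq, and no build is named in the array tables.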

Additional observations from a re-analysis of the deposited data

How the results depend on the processing

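The log2 difference of miR-21 stayed above 0 and short of the threshold under 18 settings that kept all 6 arrays (0.29 with array weights to 1.35 without scaling, limma adjusted p 0.111 to 0.884). The sign was not free to change in all of them. The wider filter, trend and robust, and the replicate block leave the estimate at 0.82 by construction, and quantile normalization does not measure a change in brightness here. Under the main scaling, leaving out 1 array gave a log2 difference of miR-21 of -0.054 to 1.31, below 0 only without control replicate 3. Without control replicate 3, 14 other settings gave -0.38 (the authors' values) to 0.42, and 13 of them were above 0. The scaling by ratios to the mean array, the sums without miR-4454 and the settings that combine a scaling with leaving out control replicate 3 were chosen after seeing the data. The fall of miR-21 on control replicate 3 ran from -3.20 to -2.13 over 15 settings, and its ranks were the same by raw and by globally normalized intensity. The share difference was 2.19 to 4.99 percentage points over 4 sums and 1.42 to 5.46 leaving out 1 array, and the ratio to miR-21* differed by 1.17 on raw intensity and 1.26 with normexp, where the groups overlapped, and by 0.43 to 1.72 leaving out 1 array. Without scaling the sign turned for miR-21* (0.069) and miR-590-5p (0.24), the latter also with normexp and median scaling (0.027). Leaving out 1 array gave -0.69 to -0.19 for miR-21* and -0.39 to -0.14 for miR-590-5p. The cause was not tested.

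The number of miRNAs past the threshold was 5, all higher. It was 6 with quantile normalization (5 higher, 1 lower), 80 with normexp and median scaling, 33 with normexp and the main scaling, 20 on raw intensity, 13 with the 75th percentile, 129 without scaling, 20 on the spike-ins, 1 on the authors' values, 17 on the total signal, 19 on the total without miR-21, 9 also without miR-4454, 8 with cyclic loess, 14 on the 20 brightest probes and 8 by ratios to the mean array. It was 2 with the wider filter, 9 with trend and robust (7 higher, 2 lower) and 11 with array weights. Leaving out 1 array gave 1 to 4, lowest without control replicate 1 or 3. With a replicate block it was 1, and miR-21 had 0.82 (limma adjusted p = 0.564). No pairing by replicate number was visible in the values. Same-numbered deviations correlated at -0.15, -0.17 and -0.05, and 0 of 3 numbers had both samples correlating best with their own number. These correlations cannot show whether same-numbered samples were handled together. Dim probes such as miR-21* lie close to background, which limits their precision.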
